A study of Mus musculus with 6 samples.

Results

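The cytosolic ribosomal protein genes were examined in H3K27ac ChIP-seq of mouse quadriceps. Members were the peaks whose assigned gene symbol began with Rpl or Rps and went on with a digit, or was Rpsa, Rplp0, Rplp1 or Rplp2, and S6 kinases and pseudogenes were left out. The control list held 113 such peaks of 46988, assigned to 68 genes, and the detrained list held 107 of 40721, assigned to 71 genes. Together the lists named 75 symbols of 15642. Wild-type male C57BL/6J mice were housed from 8 weeks of age without a wheel (sedentary control) or with free access to a running wheel for 4 weeks and then kept off it for 72 hours (detrained). Each group had 2 H3K27ac libraries, called C2 and C3 for control and Ex1 and Ex2 for detrained, each from the quadriceps of 1 mouse, and 1 input library. The labels give the strain as C57BL/6 for the H3K27ac libraries and as C57BL/7 and C57BL/8 for the inputs. H3K27ac libraries held between 20805019 and 22400894 tags, the control input 10812470 and the detrained input 21298438.

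Ribosomal proteins assemble with ribosomal RNA into the large (Rpl) and small (Rps) subunits of the ribosome, and their genes are transcribed at a high level in nearly all cells. Most of their mRNAs begin with a cytosine followed by a run of pyrimidines, the terminal oligopyrimidine or TOP motif, through which mTORC1 and LARP1 set their translation. Several of the genes host small nucleolar RNAs in their introns, and a few have paralogues used in particular tissues, among them Rpl3l, the form of Rpl3 found in striated muscle. H3K27ac, acetylation of lysine 27 on histone H3, marks active promoters and enhancers.

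The letters at the start are shown first, since the TOP motif begins there. The RefSeq promoter table (GRCm38.p6, the same assembly as mm10) held 81 windows for 69 of the genes, each reaching from 250 bases before the annotated start to 50 bases from it on. A C at the start followed by at least 4 pyrimidines was found in 15 of the 81 windows (18.5%), against 2.21% of all 21263 protein-coding windows and 0 of 75 windows of the mitochondrial ribosomal protein genes. Below, 7 starts of this kind are given in sense orientation, 15 bases on each side of the boundary before the start base, which is base 16, with the longest pyrimidine run near it in capitals.
Rps6 (chr4:86857353-86857382, minus strand): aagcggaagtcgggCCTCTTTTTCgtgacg
Rplp2 (chr7:141447636-141447665, plus strand): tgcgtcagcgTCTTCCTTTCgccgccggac
Rpl28 (chr7:4792950-4792979, plus strand): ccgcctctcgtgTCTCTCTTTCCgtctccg
Rpl38 (chr11:114668565-114668594, plus strand): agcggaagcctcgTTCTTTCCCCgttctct
Rps10 (chr17:27635230-27635259, minus strand): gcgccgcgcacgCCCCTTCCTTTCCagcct
Rpl15 (chr14:18270972-18271001, minus strand): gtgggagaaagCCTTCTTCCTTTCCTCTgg
Rps27 (chr3:90213634-90213663, minus strand): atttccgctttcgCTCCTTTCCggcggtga
In these 7 the run held between 9 and 17 pyrimidines. The upstream start of the muscle paralogue Rpl3l and the annotated starts of Rplp0 and Rps3a1, shown for contrast, had no run longer than 5.
Rpl3l (chr17:24727811-24727840, plus strand): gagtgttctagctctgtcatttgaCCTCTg
Rplp0 (chr5:115559452-115559481, plus strand): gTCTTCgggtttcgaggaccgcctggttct
Rps3a1 (chr3:86142654-86142683, minus strand): ttaaagCCggaagggcgaaagagcaagggt
Among those not in the table were Rpl3, Rpl7, Rpl8, Rpl17, Rpl21, Rpl29, Rpl30, Rpl32, Rpl36, Rplp1, Rps14, Rps20 and Rps29. A window without the motif says only that these letters are not at the annotated base.

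Nearly all of the genes carried H3K27ac at the start. RefSeq held 89 protein-coding genes that fit the rule, and the start of 77 of them (86.5%) lay in a control peak and that of 79 (88.8%) in a detrained peak, whatever gene the peak was assigned to. Over all 21000 protein-coding genes the shares were 52.7% and 52.5%. With paralogues and genes that only share the naming, such as Rps19bp1, set aside, 73 of 77 ribosomal protein genes (94.8%) were covered in each list and 70 in both. The mitochondrial ribosomal protein genes were at 96.2% and 93.6% of 78, and the proteasome subunit genes at 90.0% and 95.0% of 40, so the starts of other housekeeping sets were covered at like shares.

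The starts of 7 genes lay in no peak of either list. Rpl10l and Rpl39l, which are used in the testis, had no peak within 127691 bp, and Rpl32l, Rpl37rt, Rps23rg1 and the Rps27rt of RefSeq had none within 3381 bp. Rpl27 differed from these, since a peak assigned to it began 50 bp downstream of the start in the control list and 31 bp downstream in the detrained list. The densities in that Rpl27 peak were 71.3, 69.0, 79.6 and 66.4 in C2, C3, Ex1 and Ex2, given as tags per kb and per 10000000 library tags, and this unit and this order of libraries are used throughout. The groups overlapped at Rpl27, and its density was like that of many other members.

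Of the 82 starts covered in either list, 8 lay in a peak of 1 list only, 3 in control and 5 in detrained. Over all protein-coding genes 11720 starts were covered in either list, 691 of them in control only and 651 in detrained only. In 3 of the 8 members the peak of the other list stopped within 100 bp of the start, at 7 bp for Rps4x, 39 bp for Rpl24 and 62 bp for Rps19bp1. Rps4x, the X-linked form of a small subunit protein, had a control peak of 1102 bp beside its start, with 164 pooled tags and densities of 34.2 and 33.5, and a detrained peak of 1534 bp over it, with 189 pooled tags and densities of 28.1 and 29.3. It was thus lower by density and higher by tags in detrained. Rpl22l1, a paralogue of Rpl22, had a detrained peak of 1055 bp at 74.7 and 55.2 in Ex1 and Ex2, and the nearest control peak was 165379 bp away. Rpl6, of the large subunit, had a detrained peak of 1408 bp at 37.7 and 32.98, with the nearest control peak 12305 bp away. Rpl36a, X-linked, had a control peak of 1723 bp at 29.7 and 25.8, with the nearest detrained peak 15089 bp away. The starts of Rpl26 and Rpl23a lay in a control peak and a detrained peak that were assigned to Gm15772 and to the small nucleolar RNA Snord42b. Densities at Rpl6, Rpl36a and Rps4x were among the lowest of all members, and those at Rpl22l1 were not. A peak list says whether a region passed the authors' threshold in a group, so absence from a list is not a measured density, and these differences were not tested.

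The gene that a peak is assigned to is the one with the nearest annotated start, and for 18 members the start lay in a peak assigned to another gene in at least 1 list. Rps3, Rpl3 (control) and Rpl23a (detrained) were inside peaks assigned to small nucleolar RNAs, and Rps2 in a control peak assigned to their host Snhg9. Rpl18 lay in a peak of Sphk2, Rps18 of Vps52, Rps25 of Trappc4, Rps27a of Clhc1, Rps28 of Ndufa7 and Rpl36al of Mgat2, in both lists. The peak assigned to Rps27rt in the detrained list, at 91.4 and 91.2, covered the start of Rps27 and of Rab13, while RefSeq places Rps27rt on another chromosome. Rps27a, which encodes a fusion of ubiquitin and a small subunit protein, had densities of 88.0 and 96.9 in the control libraries and 103 and 95.3 in the detrained libraries, and the groups overlapped. A peak that spans a member's start also held the start of another protein-coding gene in 8 of 63 cases in control (12.7%) and 7 of 67 in detrained (10.4%), against 13.6% over all genes in each list. Rpl4 with Zwilch, Rpl9 with Lias, Rpl12 with Lrsam1, Rpl35a with Iqcg and Rpl7 with Rdh10 shared a peak in both lists, and the tags of such a peak cannot be divided between the pair.

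Levels were compared at TSS peaks, defined as peaks that span the assigned start, with 1 peak for each gene. Such a peak was listed for 63 members in control, 67 in detrained and 58 in both, out of 10413, 10387 and 9302 genes. Rpl27, Rpl32l and Rps4l had peaks but none over the start. Median density at the members' TSS peaks was 74.1, 73.1, 69.3 and 63.4, and that of all TSS peaks was 60.5, 61.1, 61.7 and 57.3. The members lay above all genes by 0.29 and 0.26 on the log2 scale in the control libraries and by 0.17 and 0.15 in the detrained libraries. Median densities of the proteasome subunit genes were 75.4, 77.7, 79.3 and 67.4, above the members in each library. These are medians over each list's own genes. Over the 58 members and 9302 genes with a TSS peak in both lists, the library medians of the members were 6.22, 6.20, 6.17 and 6.11 on the log2 scale, against 5.97, 5.99, 6.00 and 5.89 for all genes. In 33 of the 58 members all 4 libraries were above the highest library median of all genes, and in 9 all 4 were below the lowest. The shares of all genes that pass these rules were not counted, so the counts do not set the members apart.

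The peaks were compact. Their median length was 1791 bp in control and 1813 bp in detrained, 84.4% and 85.7% of the medians of all genes, 2121 bp and 2115 bp. Because the peaks were shorter, the median number of pooled tags was like that of all genes, at 587 against 608 in control and 590 against 581 in detrained. Median reach was 837 bp upstream and 944 bp downstream of the start in control, and 845 bp and 968 bp in detrained. The centre lay downstream of the start in 58.7% (control) and 53.7% (detrained) of these peaks, against 67.2% and 68.1% for all genes, and against 77.6% and 77.4% for the mitochondrial ribosomal protein genes. Median length of the mitochondrial set was 1454 bp and 1383 bp, and its median densities were 71.0, 70.5, 75.4 and 70.7. Cytosolic and mitochondrial ribosomal protein genes were therefore close in density in the control libraries. By density the cytosolic set lay lower in both detrained libraries, a difference that was not tested. In tags of the whole peak, not divided by length, the median log2 ratios of detrained to control were -0.03 (cytosolic) and -0.04 (mitochondrial).

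**Figure D1:**
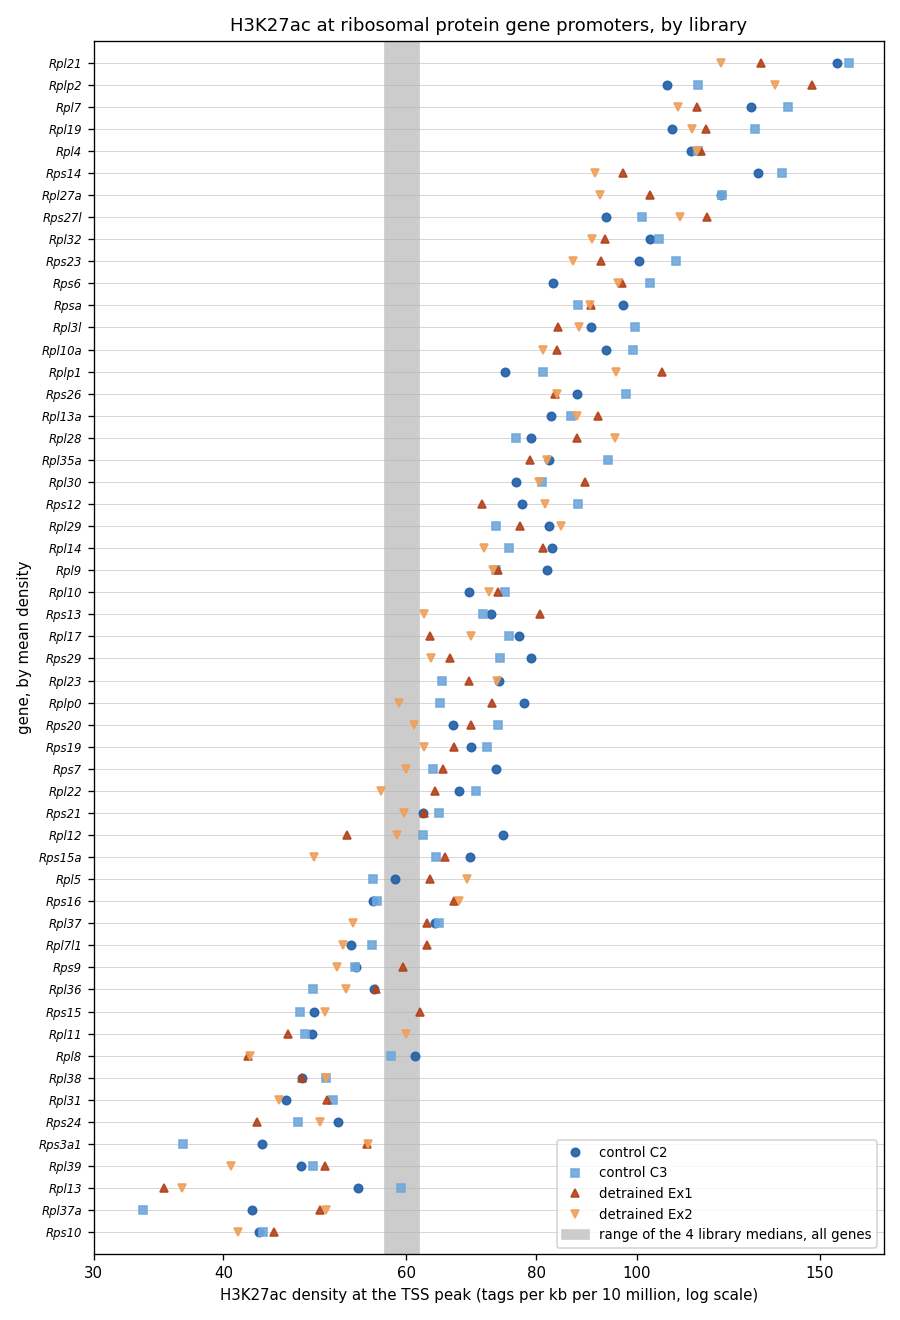
Density of H3K27ac at the TSS peak (horizontal axis, tags per kb per 10000000 tags, log scale) for 54 of the 58 members with a TSS peak in both lists, ordered by mean density, with 1 point for each of the 4 libraries. The grey band runs between the lowest and highest library median of all genes, 57.3 and 61.7, and 30 of the members drawn have all 4 points to its right. The share of all genes to its right was not counted.

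Among the large subunit genes, Rpl21 had the highest mean density of the 58 members, at 156, 160, 132 and 120. Both control values were above both detrained values. Rpl7, next after Rpl21 and the stalk gene Rplp2, had 129, 140, 114 and 110, again with the control libraries on top. At Rpl19 the values were 108, 130, 116 and 113, and at Rpl4 113, 114, 115 and 114, and in both genes the groups overlapped. Rpl4 varied least between the 4 libraries among these high genes, and its peak had nearly the same length in both lists, 1553 bp and 1556 bp. At the other end, Rpl39, an X-linked gene for one of the smallest ribosomal proteins, had 47.5, 48.8, 50.2 and 40.7, and the groups overlapped. Rpl37a had 42.7 and 33.5 in control and 49.6 and 50.2 in detrained, without overlap.

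Rpl5 and Rpl11 encode the proteins that join 5S ribosomal RNA and, when free, bind Mdm2 and so link ribosome assembly to p53. Rpl5 had densities of 58.5 and 55.7 in control and 63.3 and 68.6 in detrained, without overlap, in a peak of 1300 bp (control) and 1024 bp (detrained). In total pooled tags the Rpl5 peak held 327 in control and 291 in detrained, so it was higher by density and lower by tags. Rpl11 had 48.7 and 48.0 in control and 46.2 and 59.9 in detrained, and the groups overlapped. Both peaks were among the short ones and lay mostly downstream of the start.

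The stalk of the large subunit, which recruits translation factors, is built from the products of Rplp0, Rplp1 and Rplp2. Rplp2 was second in mean density of all members, with 107 and 114 in control and 148 and 136 in detrained. Rplp1 had 74.7 and 81.2 in control and 106 and 95.5 in detrained. In both genes the detrained libraries lay above the control libraries. Rplp0 had the shortest TSS peak in both lists, 954 bp and 884 bp, with densities of 78.0, 64.7, 72.5 and 59.0, and its groups overlapped. The pooled tags of Rplp1 were 787 in both lists, and those of Rplp2 were 1047 and 942.

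In the small subunit, Rps14 was highest in the control libraries at 131 and 138, with 96.9 and 91.1 in the detrained libraries. Rps6, whose product is the substrate of the S6 kinases, had 83.1 and 103 in control and 96.7 and 95.9 in detrained, and the groups overlapped. Rps19, the gene most often altered in Diamond-Blackfan anaemia, had 69.3 and 71.7 in control and 66.7 and 62.4 in detrained, without overlap. Rpsa, which is also known as the laminin receptor, had 97.03, 87.9, 90.4 and 90.1, with overlap. Rps10 had the lowest mean density of the 58 members with a TSS peak in both lists, 43.3 and 43.7 in control and 44.7 and 41.3 in detrained, and its groups overlapped. Rps3a1 was low in the control libraries, at 43.6 and 36.5, and stood at 55.0 and 55.1 in the detrained libraries. The detrained peak over the start of the X-linked Rps4x, at 28.1 and 29.3, had the lowest values of any TSS peak of a member in that list.

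Among the paralogues, Rpl3l stood apart. Its peak was 12294 bp long in the control list (chr17:24726398-24738692) and 15082 bp long in the detrained list (chr17:24723222-24738304), longer than 97.8% and 99.0% of all TSS peaks, and the next longest were Rps9 at 3945 bp and Rpl10 at 3698 bp in control, and Rpl10 at 3447 bp, Rpl13 at 3386 bp and Rps9 at 3337 bp in detrained. In both lists the Rpl3l peak covered the whole gene (chr17:24727826-24736143) with both RefSeq starts, and also the start of the neighbouring Msrb1, and in the detrained list that of Ndufb10. Density of Rpl3l was 90.4 and 99.6 in control and 84.0 and 88.1 in detrained, within the range of the other members, and its pooled tags, 5159 and 5603, were the most of any member's TSS peak. The ubiquitous Rpl3 lay in a control peak of 2757 bp at 68.7 and 74.3 and in a detrained peak of 1990 bp at 92.3 and 89.6. Rps27l, a paralogue of Rps27 known as a p53 target, had 93.3 and 101 in control and 117 and 110 in detrained, without overlap. Rps27 itself had 84.6 and 81.4 in control and 91.4 and 91.2 in detrained, also without overlap. Both peaks were shorter in detrained, at 2182 bp and 1891 bp for Rps27l and 2034 bp and 1741 bp for Rps27. In tags of the whole peak the log2 ratio of Rps27l was 0.02, and its groups overlapped. By density Rpl22 had 67.5 and 70.0 in control and 64.0 and 56.7 in detrained, without overlap, beside Rpl22l1, which had a detrained peak only. Rpl7l1 had 53.1, 55.7, 62.9 and 52.1, below Rpl7 in every library, and its groups overlapped. Rpl36al, the autosomal form of Rpl36a, had 94.3 and 84.8 in control and 80.9 and 57.1 in detrained without overlap, in the peak assigned to Mgat2. Rpl35 lay in a control peak of 9608 bp assigned to Arpc5l and in a detrained peak of its own of 1690 bp.

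**Figure D2:**
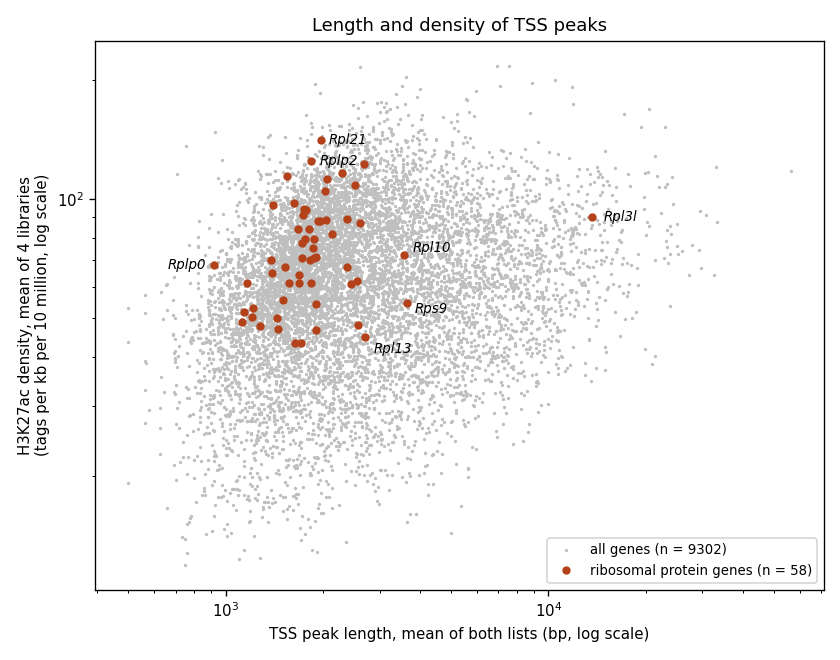
Mean length of the TSS peak over both lists (horizontal axis, bp, log scale) against mean density over the 4 libraries (vertical axis, tags per kb per 10000000 tags, log scale), with 1 grey point for each of 9302 genes and 1 red point for each of 58 ribosomal protein genes. Rps9 and Rpl10 are the longest of the other members, and Rpl3l lies far to their right at a like density.

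**Figure D3:**
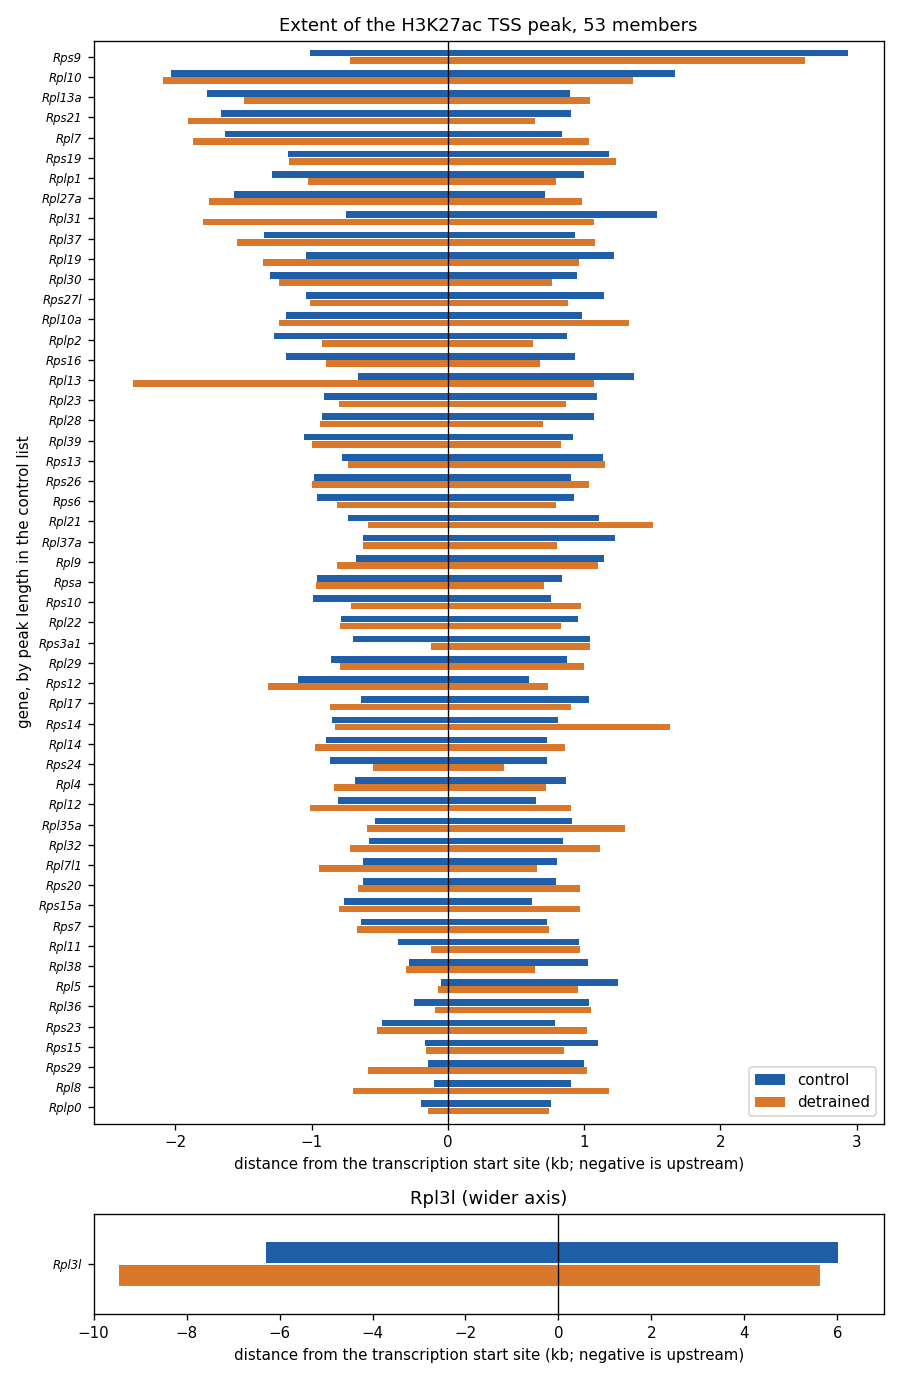
Reach of the TSS peak in kb upstream (negative) and downstream of the assigned start, with 1 blue bar for the control list and 1 orange bar for the detrained list for each of 53 genes, and with Rpl3l on its own wider axis. For Rpl3l the assigned start is the downstream one of 2 RefSeq starts. Rps3a1 reaches less far upstream in the detrained list, and Rpl13 and Rpl8 reach farther.

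The comparison of detrained with sedentary muscle asks whether a difference in acetylation outlasts the end of running. No member differed by 2-fold. Over the 58 members the median log2 ratio of density, detrained to control, was -0.06 (range -0.66 to 0.46), and that of all 9302 genes was -0.03. Both detrained libraries lay above both control libraries in 10 members (17.2%), against 23.9% of all genes, and below both in 18 (31.0%), against 30.5% of all genes. The remaining 30 overlapped. Scaled to the tags in listed peaks, 13 were higher and 14 lower, against 31.6% and 24.9% of all genes. Centred on the median of all genes, 13 were higher and 16 lower, against 27.1% and 26.9%. Over all genes 0.237% differed by 2-fold or more without overlap. Of the mitochondrial ribosomal protein genes 18 of 49 were higher and 18 lower, with a median of 0.05, and of the proteasome subunit genes 7 of 31 were higher and 7 lower, with a median of -0.03. The absolute log2 ratio of a member had a median of 0.13 and a highest value of 0.66. Single libraries differed by a median of 0.10 and at most 0.35 between C2 and C3, and by a median of 0.11 and at most 0.42 between Ex1 and Ex2. The ratio compares means of 2 libraries, which vary less than single libraries, so these sizes are not on one footing. Rpl13, Rps14, Rpl8 and Rps3a1, 4 members, were beyond the highest difference within a group among the members. In tags of the whole peak, not divided by length, their log2 ratios were 0.085, 0.05, 0.42 and -0.11, each of the other sign. The share of all genes beyond that limit was not counted. No test between groups was made, because the lists were normalized separately and because an exact two-sided permutation test of 2 against 2 libraries cannot go below p = 0.333.

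The ratios moved with peak length. All 10 members that were higher in density had a shorter peak in the detrained list, and 17 of the 18 that were lower had a longer one. Over all genes the same held for 92.0% of those higher and 86.5% of those lower. When the tags of the whole peak were compared without dividing by length, 10 members were higher, against 17.8% of all genes, and 17 lower, against 30.8%, but these were mostly other genes. On that scale the members' median log2 ratio was -0.03. Of 49 mitochondrial ribosomal protein genes 10 were higher and 15 lower, with a median of -0.04, and on both scales 1 was higher and 2 lower. Of 31 proteasome subunit genes 8 were higher and 7 lower by tags per peak, with a median of 0.07. The sign of the ratio differed between density and tags per peak in 30 of 58 members (51.7%), and in 52.9% of all genes. Of the 10 higher members 0 were higher on both scales, and of the 18 lower members Rpl17, Rpl21, Rpl22 and Rps19 were lower on both, 6.90% of the 58. Over all genes 3.69% were higher and 9.37% lower on both scales. Peak boundaries were drawn by the authors separately in each group, and their part in these ratios was not tested.

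Among the members lower by density, Rpl13 had 53.9 and 59.2 in control and 35.0 and 36.5 in detrained, a log2 ratio of -0.66, with a peak of 2020 bp and 3386 bp and with 504 and 522 pooled tags. Rps14 had a log2 ratio of -0.52, with a peak of 1663 bp and 2460 bp and with 986 and 996 pooled tags. Rpl8 had 61.1 and 58.0 in control and 42.3 and 42.4 in detrained, a log2 ratio of -0.49 by density and of 0.42 by tags per peak. Each of these 3 was lower by density and higher by tags. At Rpl27a the values were 121 and 121 in control and 103 and 92.2 in detrained, a log2 ratio of -0.31 by density and -0.05 by tags per peak, and the libraries overlapped on the second scale. Rpl21, at the top of the density order, had a log2 ratio of -0.33 by density and -0.14 by tags per peak, and both detrained libraries were below both control libraries either way.

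Among the members higher by density, Rps3a1 had a log2 ratio of 0.46 by density and -0.11 by tags per peak, with a peak of 1738 bp (control) and 1167 bp (detrained). Rpl37a had 0.40 and 0.03, with a peak of 1844 bp and 1426 bp. The ratios of the stalk genes were 0.37 by density and 0.04 by tags per peak for Rplp1, and 0.36 and -0.12 for Rplp2. Rps16 had 55.8 and 56.2 in control and 66.7 and 67.5 in detrained, a log2 ratio of 0.26, and -0.17 by tags per peak. By tags per peak the lowest member was Rps24, at -0.81, with 347 pooled tags in control and 193 in detrained in peaks of 1593 bp and 968 bp, while by density it was at -0.10 with overlapping groups.

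**Figure D4:**
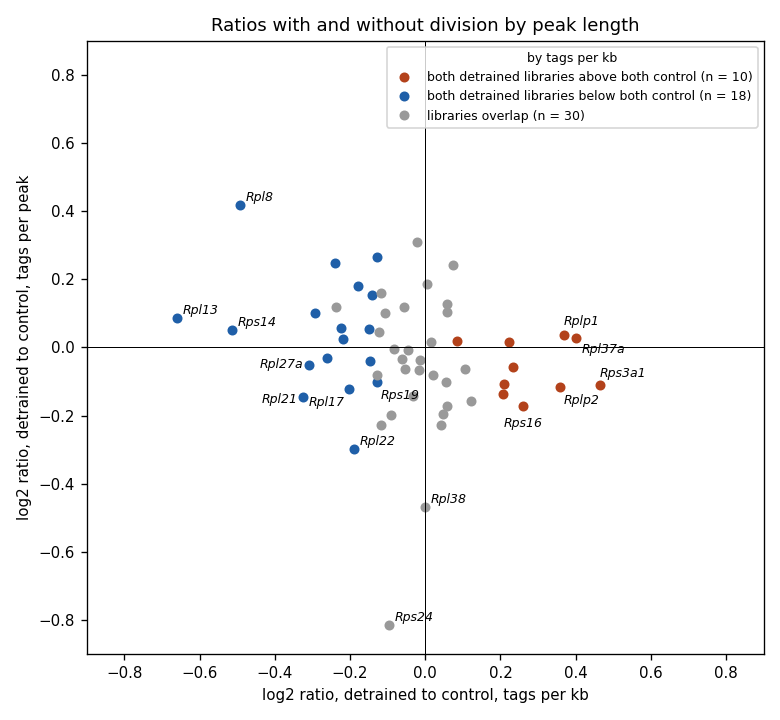
Log2 ratio of detrained to control by tags per kb (horizontal axis) and by tags per peak (vertical axis) for the 58 members, coloured by whether the libraries of the groups overlap by tags per kb. All 10 red points (higher) are at or below 0.04 on the vertical axis, and Rpl17, Rpl21, Rpl22 and Rps19 are among the blue points (lower) below 0 on both.

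Of the peaks assigned to members, 39 of 113 in control (34.5%) and 33 of 107 in detrained (30.8%) were 10 kb or farther from the start, spread over 17 and 13 genes. Their median density, 25.8 in control and 29.6 in detrained, was well below the 71.7 and 66.3 of the TSS peaks. In control 17 lay in introns and 21 between genes, and in detrained 19 and 13, and they were assigned by distance alone. The one with the most tags, annotated to an intron of the focal adhesion gene Pxn 25.4 kb before Rplp0 in control, was 11299 bp and 10915 bp long with 2850 and 2773 pooled tags, more than any TSS peak of a member but that of Rpl3l. Its densities were 55.8 and 58.4 in control and 61.8 and 56.2 in detrained, and the groups overlapped. An intergenic peak 19.7 kb before Rpl29 in control was 9978 bp and 11857 bp long, at 46.2 and 46.5 and at 41.9 and 45.6.

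Rps24 and Rplp1 collected intergenic peaks up to 303 kb and 268 kb away, 7 and 6 in control and 6 and 3 in detrained. Those of Rpl31 lay in introns of the clock gene Npas2 and of Tbc1d8, 5 in control and 8 in detrained. All 4 peaks of Rps4l in each list were in introns of Tmtc1. Nearer to its start, Rps27l had a peak 6 kb downstream at 67.0 and 96.4 in control and 87.0 and 83.3 in detrained. The control peak beside Rps19bp1 had 77.9 and 87.4.

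Of the other motifs searched in the promoter windows, on both strands, the ETS core CCGGAAG was in 33.3% of the members' windows and 11.6% of all. The mitochondrial and proteasome sets were at 34.7% and 34.3%, close to the members. GGGCGG, the core of an SP1 site, was in 58.0% of the members' windows and 46.2% of all windows. AAGATGGC, the core of a YY1 site, was in 9.88% and 3.05%, and TGCGCA, part of an NRF1 site, in 17.3% and 9.74%. The E-box CACGTG was in 9.88% and 7.84%. The mitochondrial set held AAGATGGC in 12 of 75 windows and TGCGCA in 29.3%, both above the members, and the proteasome set held them in 8.57% and 14.3%. GGGCGG was in 39 of 75 mitochondrial windows and 54.3% of the proteasome windows. CCAAT was in 30.9% of the members' windows and 38.2% of all windows, and TATAAA in 9.88% and 12.6%. A run of at least 8 pyrimidines within 10 bases of the start was found in 39.5% of the members' windows and 13.98% of all windows. It was in 9 of 75 windows of the mitochondrial set. By density, the 9 members with a C and 4 pyrimidines at a listed start and a TSS peak in both lists had a median log2 ratio of -0.02, with 2 higher and 1 lower, the 33 with another start had -0.05, with 7 higher and 10 lower, and the 16 with no window in the table had -0.12, with 1 higher and 7 lower. Over all genes 23.9% were higher and 30.5% lower.

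Other genes of ribosome production and translation were counted in the same way, by density, where 23.9% of all genes were higher and 30.5% lower. Of 18 genes of ribosome biogenesis with a TSS peak in both lists, 2 were higher and 6 lower, with a median log2 ratio of -0.04, and of 8 genes of the RNA polymerase I machinery 1 was higher and 3 lower, with a median of -0.15. The 6 lower biogenesis genes were Ncl, Nop56, Nop58, Gar1, Nmd3 and Nob1. By tags per peak the first 5 were below 0 too, at -0.26, -0.24, -0.19, -0.17 and -0.35, while Nob1 was at -0.45 by density and 0.12 by tags per peak. The polymerase I subunit gene Twistnb had the lowest ratio of these lists, -1.09 by density, and was at 0.27 by tags per peak. Of 10 translation factors and other genes with TOP mRNAs, 3 were higher and 3 lower, and of 13 S6 kinase, mTORC1 and LARP1 genes 1 was higher and 5 lower. Of 5 snoRNA host genes, 2 were higher and 0 lower. By tags per peak 2 of these 5 were higher and 1 lower, against 17.8% and 30.8% of all genes, with a median of -0.08. Gas5, higher by density, was at -0.09 by tags per peak. Fau and Rack1, ribosomal protein genes with other symbols, had log2 ratios of -0.19, without overlap, and 0.14, with overlap, and Fau was at 0.14 by tags per peak. Eef1a2, the elongation factor of adult muscle, was at 0.05 with overlap.

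The tissue markers matched quadriceps in that 9 of 10 muscle fibre genes had a start in a peak of each list, Myh2 being the exception, and Alb, Myh6, Krt5 and Cdh1 of other tissues had none. Endothelial and fibroblast genes were present, all 4 and all 3 in each list. Satellite cell genes were present too, 2 of 2, with 1 of 5 immune genes in control and 3 in detrained, 1 of 2 Schwann cell genes and 0 of 2 adipocyte genes. By density 2 of 3 fibroblast genes were higher in detrained, 4 of 4 endothelial genes overlapped with a median log2 ratio of -0.29, and of 7 muscle fibre genes 0 were higher and 2 lower, with a median of -0.18. By tags per peak 3 of 3 fibroblast genes and 3 of 4 endothelial genes were higher, with medians of 0.20 and 0.59, and of the muscle fibre genes 2 were higher and 1 lower, with a median of 0.10. Over all genes 23.9% were higher and 30.5% lower by density, and 17.8% and 30.8% by tags per peak. Densities at the endothelial Kdr were 28.4 and 46.6 in control and 34.9 and 22.04 in detrained, and those of Pecam1, Cdh5 and Tie1 were likewise higher in C3 than C2 and in Ex1 than Ex2. The part of cell composition in the differences between libraries was not tested, and in bulk tissue fewer nuclei of a type and less acetylation in each nucleus cannot be told apart.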

How the data were processed

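The submitters' processing notes name Bowtie 1.2, HOMER and mm10. H3K27ac regions were called by the authors on both libraries of a group against its input, and 1 table per group was deposited. The deposited signal per peak is the pooled tag number of both libraries per 10000000 tags. Each library also has a deposited log2 value, regularized by the authors within the table, which shrinks differences at weak peaks. The authors' log2 fold over input and adjusted p-value were used only to make a stricter list (log2 fold of at least 2, adjusted p under 0.001). The control columns C2 and C3 do not match the label numbers and were assigned to the group.

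Library tags were estimated by dividing each peak's pooled tags between the libraries by library total times 2 to the power of the log2 value. Density was (tags + 0.5) per kb per 10000000 tags. A TSS peak spans the assigned start (its centre no farther from the start than its edges are from the centre), and the peak with most tags was kept for each gene. Pairs of TSS peaks had to overlap. Ratios are differences of mean log2 values. Starts, hosts and promoter windows came from RefSeq GRCm38.p6, and a gene's start was covered if any of its NM transcripts began in a peak. Scripts ran in Python 3.11.15 with pandas 2.3.3 and numpy 2.4.6 and were tested on simulated peaks. Named genes were the 5 highest and lowest in density, the 5 largest ratios in each direction, the 3 longest peaks, members with a TSS peak in 1 list or a peak 10 kb away, and fixed paralogues and regulators, and others were named after their values were seen. The members and gene lists were chosen with earlier results of these data known. Depth was 20805019 to 22400894 tags per H3K27ac library. Values of a few members are not reported here.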

Additional observations from a re-analysis of the deposited data

How the results depend on the processing

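Scored by tags per peak instead of per kb, the log2 ratio took the other sign in 30 of 58 members, and 17 of these did not overlap by density. Of 29 members whose own ratios were recomputed under the alternatives of scale and library, 12 took the other sign by tags per peak. In 8 of these 12 the groups did not overlap by density, and the value became 0.085 for Rpl13, 0.15 for Rpl3l, -0.14 for Rpl5, 0.42 for Rpl8, -0.12 for Rplp2, 0.0498 for Rps14, -0.17 for Rps16 and -0.11 for Rps3a1. The other 4, Rpl10, Rpl11, Rps6 and Rps9, overlapped by density and were at -0.081, -0.16, -0.17 and -0.19. On that scale the members differed from all genes by -0.029 (log2). The difference in log2 density from all genes was 0.27 with the authors' promoter-TSS annotation in place of a peak spanning the start, 0.13 with the stricter list, 0.17 with peaks at RefSeq starts of any assigned name (an alternative chosen after seeing the data), and between 0.19 and 0.24 when 1 library was left out.

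The members' median log2 ratio was -0.0051 when scaled to tags in listed peaks, -0.0873 with the promoter-TSS annotation, and between -0.0883 and -0.0114 without 1 library. When pairs had to overlap by at least 80%, 4 of 39 members were higher and 10 lower, against 15.5% and 26.3% of all genes. With the promoter-TSS annotation, under which 38 genes had a peak in both lists, 6 were higher and 13 lower, against 22.8% and 30.6% of all genes. Without 1 library, 13 to 18 members were higher, against 27.1% to 42.8% of all genes, and 22 to 33 lower, against 34.0% to 50.9%, since fewer values have to separate. With stricter peaks the median length was 76.8% of that of all genes in control and 80.3% in detrained. The cause was not tested for the other shifts, and the spread rests on 2 libraries in a group. No paired analysis was possible because each library came from a different mouse and a replicate number is all that libraries share, the control columns do not carry the label numbers, and no test between groups was made.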
